A study of Drosophila sechellia x Drosophila simulans with 8 samples.

Results

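In F1 hybrids of Drosophila sechellia and Drosophila simulans, 21 autosomal genes had almost only reads of the D. sechellia allele in all 4 groups of samples. They were chosen by that share. A gene on chromosome arm 2L, 2R, 3L, 3R or 4 was taken when each group, with its 2 libraries summed, had 30 or more allele-specific reads and at least 90% of them carried the alternative allele. Of 14176 genes, 2296 autosomal genes had enough reads in every group, and 24 of these (1.05%) passed the 90% line. Desat2, Adh and Adhr passed and were left out by name, which gave the 21 genes; DesatF and Obp99a were also on the list of left-out genes and did not pass. The shares below therefore describe a choice made on the same values and were not tested.

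The study sequenced total RNA from dorsal abdominal tissue of 10-day-old hybrid flies kept under 12 hours of light and 12 hours of dark, with dissections spread over 24 hours. The 4 groups were oenocytes and fat body, each from females and from males, with 2 libraries a group. All groups carried the same F1 hybrid background with 1 genome of each species; no other treatment or genotype was labelled, and neither parental species nor the reverse cross was analysed here. The labels give neither the mother's species nor how many flies made up a library, and do not say that the 2 libraries of a group came from separate flies, so p-values measure only the spread between these libraries.

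Oenocytes are abdominal cells that make the hydrocarbons of the insect cuticle, and the fat body is the tissue for storage, metabolism and secretion that lies beside them. In an F1 hybrid both alleles of a gene are read in the same cells and meet the same regulatory proteins, so an unequal number of allele reads is commonly used as a measure of differences that lie near the gene itself. Only reads that cover a site where the species differ can be given to an allele. Of the 21 genes, 2 carry a symbol in the files. CAH1 is carbonic anhydrase 1, an enzyme that interconverts carbon dioxide and bicarbonate, and CoVIII is a subunit of cytochrome c oxidase, the last enzyme of the mitochondrial respiratory chain. The other 19 have only GD numbers, which the files do not pair with names or functions.

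Libraries held 2275755 to 4642417 aligned reads, of which 563434 to 1155753 (24.8% to 30.4%) were allele-specific, and 62.5% to 65.0% of autosomal allele-specific reads were alternative. The 2 male oenocyte libraries differed in their estimated counts by little more than counting error (chi-square over degrees of freedom 1.08, where the other pairs had 2.98 to 5.83) and entered every test as 1 sample. Their aligned reads per gene, from which the allele reads come, differed by more than counting error (chi-square over degrees of freedom 7.68 on average and 0.557 in the median gene, against averages of 10.5 to 13.9 in the other pairs). The tissue labels could be checked with few markers, since 2 of 11 oenocyte and 4 of 15 fat body markers were found by symbol. DesatF, an oenocyte desaturase, had 2725 and 2544 TPM (length-scaled transcript abundance with a fixed sum) in female oenocytes against 30.4 and 25.7 in female fat body. In males it had 145 and 143 TPM in oenocytes against 4.3 and 4.0 in fat body. Desat1, also on the oenocyte list, was higher in fat body (8822 to 12444 TPM) than in oenocytes (5214 to 6648 TPM). Yp2, a yolk protein gene of the female fat body, had 88267 and 87132 TPM in female fat body and also 36351 and 37413 TPM in female oenocytes. In males Yp2 did not separate the tissues, with 54.6 and 84.7 TPM in fat body and 56.3 and 67.2 in oenocytes. Obp99b had 466 and 451 TPM in male fat body and 35.6 and 32.7 in male oenocytes. In females Obp99b had 33.8 and 36.3 TPM in fat body and 21.6 and 18.3 in oenocytes. Fbp2 and Lsp1gamma had 0.25 TPM or less in every library.

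The reading of alternative as D. sechellia rests on the transcript tables, which count each transcript once as a D. simulans copy and once as a D. sechellia copy. Across autosomal genes, the alternative share rose with the share of the D. sechellia copy in every library (Pearson's r 0.687 to 0.840 over 239 to 429 genes; both counts come from the same library, and genes are not independent replicates). Among the 21 genes, 20 could be matched to transcripts, 17 to a single transcript and 3 to the sum of 2. For 11 of the 20 the copies were told apart, and in 9 of these the D. sechellia copy took 90% or more of the estimated counts over the 8 libraries. The share was 100% in GD11583, 99.2% in GD23662, 99.1% in CoVIII, 97.7% in GD19617 and 92.2% in CAH1. The other 2 were GD23068 with 80.4% of 1334 estimated counts and GD12013 with 57.6% of only 51.2.

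For the remaining 9 matched genes both species copies were listed with equal counts, so these tables say nothing on their alleles. GD10271, GD11528, GD18958, GD20462, GD25287, GD25395, GD25466, GD25574 and GD29026 made up this group, and GD22123 had no matching transcript. Equal copies were listed for 41.2% of the 17 genes with a single transcript and for 35.6% of the 1333 autosomal genes with enough allele reads and a single transcript. Of 849 such genes with unequal copies and at least 1000 estimated counts, 26 (3.06%) had a D. sechellia copy of 90% or more, and the median was 68.3%. Both methods start from the same RNA, so the transcript tables are a second way of counting and not a second experiment.

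**Figure D1:**
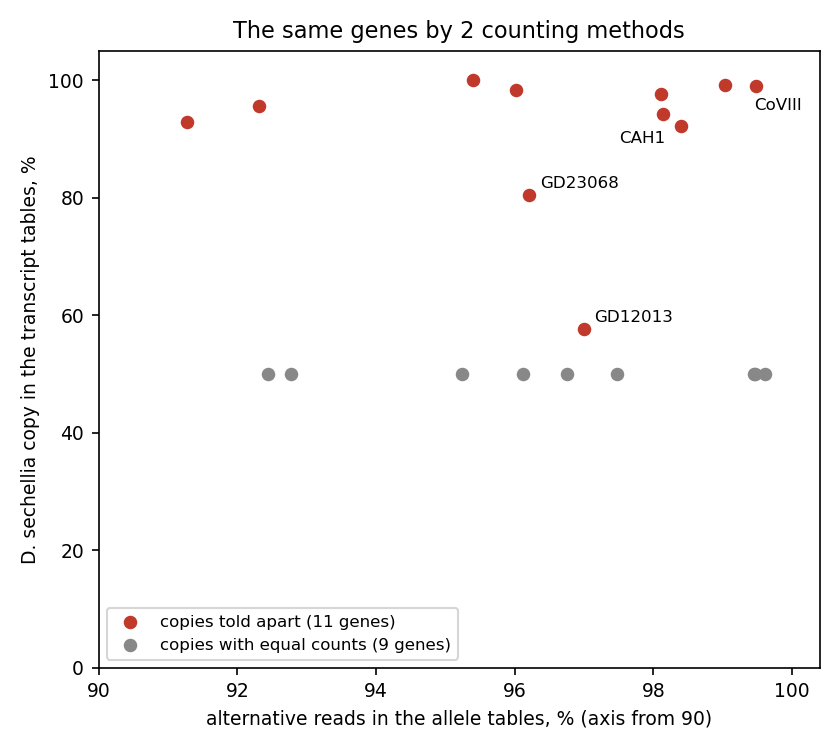
Each point is 1 of the 20 matched genes, with the alternative share of allele-specific reads over the 8 libraries (x axis, percent, starting at 90) and the share of estimated counts given to the D. sechellia copy (y axis, percent). Red points had copies that were told apart, 9 of 11 at 90% or more; grey points had equal copies and lie at 50%.

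Within the set, the alternative share over all 8 libraries ran from 91.3% to 99.6% with a median of 97.0%. The median of the 2296 autosomal genes was 62.3%. By group, the median of the 21 genes was 97.7% in oenocytes of females, 97.8% in oenocytes of males, 96.7% in fat body of females and 98% in fat body of males, where the autosomal medians were 62.5%, 60.8%, 62.7% and 63.5%. The reads behind these shares differed widely, from 277 in GD20462 to 6559 in GD22123 (median 1082). Of the 168 values for 21 genes in 8 libraries, 45 held no reference read and 11 were under 90%.

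**Figure D2:**
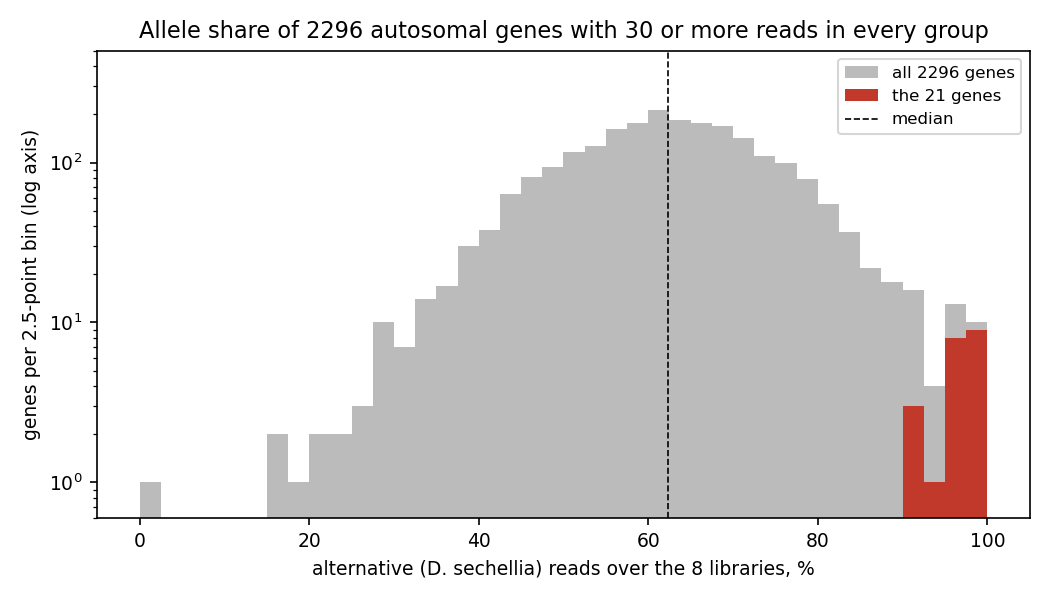
Histogram of the alternative share over the 8 libraries (x axis, percent, bins of 2.5 points) for all 2296 autosomal genes with enough reads (grey) and for the 21 chosen genes (red, drawn over the grey), with the number of genes on a log axis. The grey bars centre on the dashed median of 62.3%, and the red bars lie between 91.3% and 99.6%.

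CAH1 (2L) had 20 reference reads among 1251 over the 8 libraries. Its alternative reads were 244 of 247 and 198 of 201 in oenocytes of females, 206 of 210 and 325 of 330 in oenocytes of males, 35 of 35 and 48 of 49 in fat body of females and 46 of 49 and 129 of 130 in fat body of males. The group shares ran from 97.8% to 98.8%, with few CAH1 reads in fat body and many in oenocytes. The rule held every group to a high share, so nothing is read from how near these shares are. CoVIII (3L) had 25 of 25 and 41 of 41 alternative reads in female oenocytes, 22 of 22 and 55 of 55 in male oenocytes, 18 of 18 and 39 of 39 in female fat body, and 32 of 33 and 148 of 149 in male fat body. The 2 reference reads of CoVIII were both in male fat body. In the other 3 groups no reference read was seen in 57 to 77 reads, which allows a reference share of up to 3.90% to 5.26%.

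Of the genes with the highest shares, GD25395 (2R) had 99.6% of 1810 reads, GD25466 (2R) 99.5% of 569, GD29026 (2R) 99.5% of 552 and GD23662 (2L) 99.0% of 6022. GD25395 had alternative counts of 60 of 60 and 60 of 61 in oenocytes of females, 21 of 21 and 44 of 44 in oenocytes of males, 130 of 130 and 226 of 227 in fat body of females and 184 of 185 and 1078 of 1082 in fat body of males. No library of GD25395 was under 98.4%. GD29026 had 3 reference reads in all, and all 3 were in the second female oenocyte library, which had 28 of 31 alternative reads. GD22123 (2L), with the most reads, had 1378 of 1406 and 2635 of 2649 in oenocytes of females, 264 of 265 and 1332 of 1357 in oenocytes of males, 21 of 21 and 233 of 240 in fat body of females and 99 of 104 and 512 of 517 in fat body of males. Its group shares ran from 97.3% to 99.0%. GD19617 (3R) had 5124 reads and was even, with library shares between 97.4% and 98.6%.

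The lowest shares were those of GD13692 (3L, 91.3% of 5308 reads), GD15019 (3L, 92.3% of 1664), GD25574 (2R, 92.4% of 939), GD20462 (3R, 92.8% of 277) and GD18958 (3R, 95.2% of 2016). GD13692 had a steady small share of reference reads, with 89.1% to 93.5% alternative in each library. GD25574 was uneven: its alternative reads were 133 of 161 and 163 of 164 in oenocytes of females, 101 of 108 and 215 of 232 in oenocytes of males, 12 of 14 and 38 of 41 in fat body of females and 46 of 52 and 160 of 167 in fat body of males. The 82.6% of its first female oenocyte library was the lowest of all 168 values. The remaining genes, GD10271, GD11208, GD11528, GD11583, GD12013, GD23068, GD23670 and GD25287, had 95.4% to 98.1% over the 8 libraries.

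**Figure D3:**
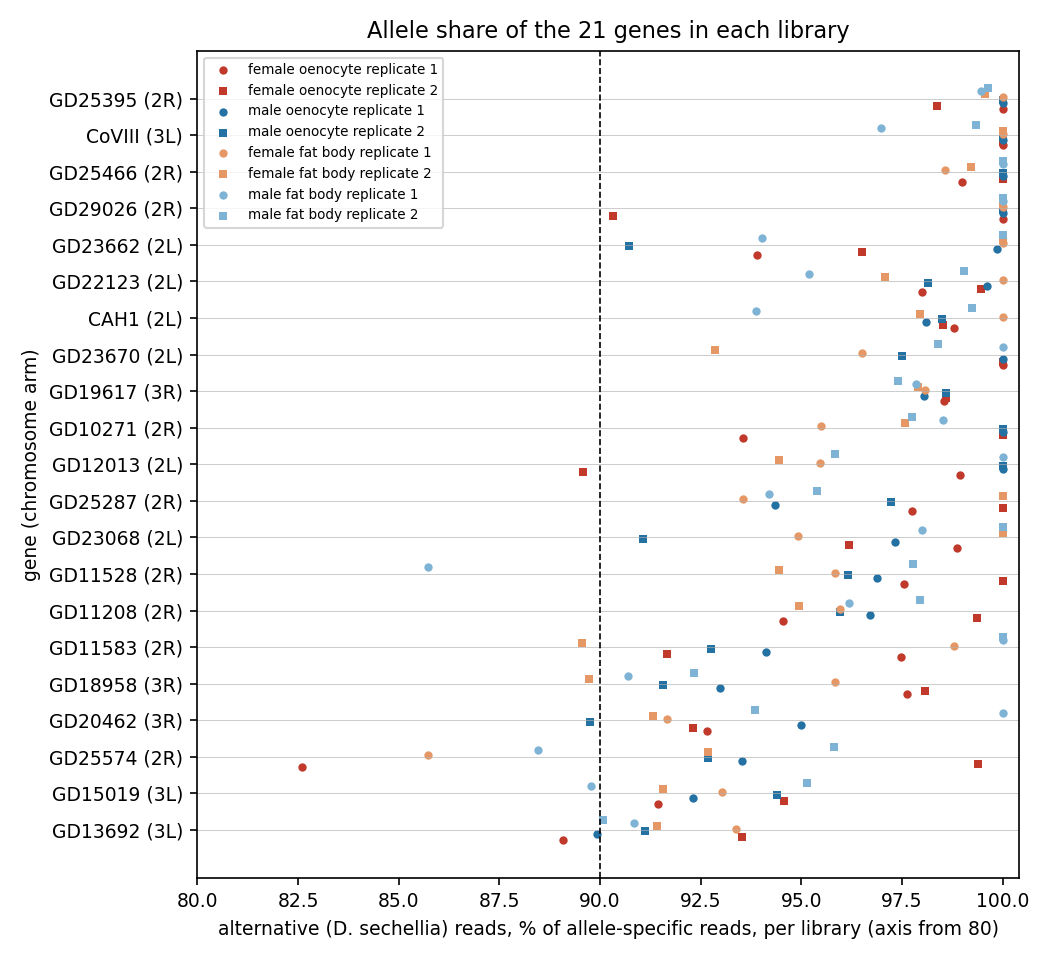
Alternative share of allele-specific reads (x axis, percent, starting at 80) in each of the 8 libraries for the 21 genes (y axis, with chromosome arm), ordered by share; colour gives the group, circles the first and squares the second library, and the dashed line the 90% limit on group sums. Of 168 points 11 fall left of the line, the lowest at 82.6% for GD25574.

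The line at 90% cut through a continuous range. Just inside it were GD13692, with 90.4% of 1196 reads in male fat body, and GD25574, with 90.9% of 55 reads in female fat body. Just outside were GD11274 (2R), with 89.9% of 89 reads in male fat body, and GD20140 (3R), with 89.8% of 49 reads in female fat body. A line at 85% would have taken 41 genes, a line at 95% took 11, and the same 90% asked of each library took 13. Leaving out 1 library and judging its group on the other gave 15 to 21 genes, the fewest without the second male oenocyte library.

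The opposite pattern was rarer. A single gene, GD13003 (3L), had at most 10% alternative reads in every group, with 0 of 292 reads in male oenocytes and 0 of 145 in female fat body (which allow up to 1.03% and 2.07%). Of the 2296 genes, 4 lay as far below the median of 62.3%, in log odds, as the 90% line lies above it, which is at or under 23.4% in every group, against 24 genes at or above 90%. On the X of males, which holds 1 allele of each gene, 1 of 533 genes (0.188%) with enough reads in both male groups had 90% or more alternative reads and 140 (26.3%) had 10% or less. The same count on the autosomes of the same male libraries gave 39 of 2626 genes (1.49%) and 1 (0.0381%). Alternative reads nevertheless made up 17.8% of allele-specific reads of the male X in oenocytes and 23.3% in fat body, which is the level of reads given to one of the alleles where only the other should be present.

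The 21 genes lay on 4 of the 5 autosomal arms. There were 6 of 500 eligible genes (those with enough reads in every group) on 2L, 9 of 601 on 2R, 3 of 523 on 3L and 3 of 647 on 3R, or 1.2%, 1.5%, 0.574% and 0.464%. No gene of 25 on chromosome 4 was in the set, which allows up to 12%. The files give no position within an arm, so whether any of them are neighbours was not analysed here.

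The level of a gene was not used by the rule beyond the minimum of reads that all eligible genes met. The mean TPM over the 8 libraries had a median of 464 in the set and 38.0 in the eligible genes. Over 1000 TPM were 9 of the 21 (42.9%) and 128 of the 2296 (5.57%), so that 7.03% of the eligible genes above this level and 0.554% of those at or below it belonged to the set. These 9 were GD11583, GD25395, GD25466, GD11208, GD13692, GD15019, GD19617, GD22123 and GD23662, with 2039 to 3890 TPM on average. CoVIII had 556 TPM and CAH1 256 TPM. At the other end GD23068 had 4.94 TPM and GD12013 0.23 TPM, although 1082 and 333 allele-specific reads were counted for them.

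Many of the abundant genes could be given to an allele only through a small part of their reads. Allele-specific reads were 25.2% of aligned reads in the median of the set and 37.1% in that of the eligible genes. Under 10% were 8 of the 21 and 61 of the 2296 (2.66%). Among the 9 genes over 1000 TPM, 7 were under 10% and the median was 7.26%, where eligible genes over 1000 TPM had 27.5%. GD25466 had the lowest value of all eligible genes, 0.966%, so its 569 allele-specific reads stood for 58896 aligned reads, and GD15019 had 1.78%. GD25395 was at the other end with 77.3%.

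The shares of these genes rest on a small part of their reads, and the part of this in the shares was not tested. Eligible genes over 1000 TPM had a median alternative share of 59.5% and eligible genes under 10% allele-specific reads had 60.8%, beside the 62.3% of all eligible genes. Of the 61 eligible genes under 10% allele-specific reads 13.1% belonged to the set, against 0.582% of the others, and of the 27 that were also over 1000 TPM 7 did. Of the 7 abundant genes under 10%, 5 with copies told apart in the transcript tables (GD11208, GD11583, GD13692, GD15019 and GD23662) had 92.9% to 100% of the D. sechellia copy, GD25466 had equal copies, and GD22123 had no match. Reads with conflicting alleles were 1.88% of aligned reads in the median of the set and 3.65% in that of the eligible genes, with 21% in GD25395 and 10.9% in GD23670.

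**Figure D4:**
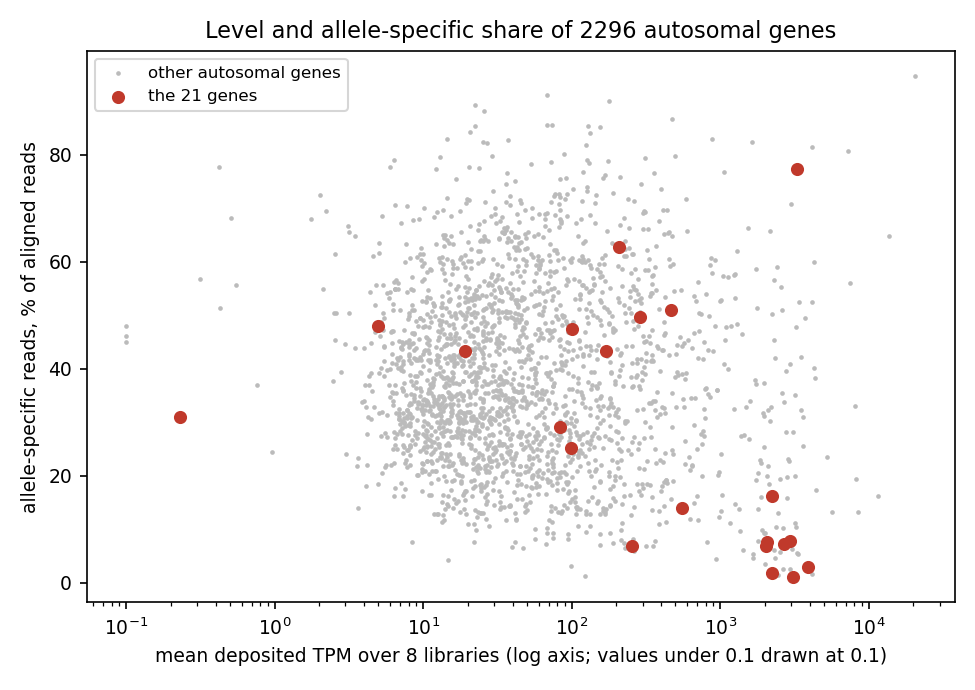
Mean deposited TPM over the 8 libraries (x axis, log scale) against the percentage of aligned reads that were allele-specific (y axis) for 2296 autosomal genes, with the 21 genes in red. A cluster of 7 red points lies above 1000 TPM and under 10%, while GD25395 stands at 77.3%.

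Allele-specific reads of some genes varied far more between the 2 libraries of a group than the TPM did. GD18958 had 1099 such reads in the first and 52 in the second female oenocyte library, while its TPM were 260 and 244. GD29026 had 122 and 14 reads in female fat body and 254 and 44 in male fat body, with TPM of 133 and 127 and of 324 and 327. In male fat body the median absolute log2 ratio between the libraries, scaled to aligned reads, was 1.22 for allele-specific reads of the 21 genes. It was 0.48 for those of the eligible genes, and 0.14 for the TPM of both sets. The sets were nearer in the other groups, with 0.43 against 0.45 in female and 0.33 against 0.25 in male oenocytes. In female fat body the medians for allele-specific reads were 0.41 against 0.30. The binomial intervals and the limits given for 0 reads cover counting error only and are too narrow where reads are not independent molecules.

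Total expression was compared next, since the rule used allele shares and no expression level beyond a minimum of reads. Counts were summed over the species copies of a transcript, and 17 of the 21 genes had a single tested transcript. Between the tissues of females 10 of the 17 (58.8%) differed, 2 higher in oenocytes and 8 lower, by edgeR's quasi-likelihood test at a Benjamini-Hochberg adjusted p under 0.05. The share over all 14279 transcripts tested was 26%, with 12.9% higher and 13.1% lower, and that over the 1332 eligible genes tested was 63.8%. In males 5 of 17 (29.4%) differed, 2 higher and 3 lower, against 21.4% of all transcripts (10.2% higher and 11.3% lower) and 53.2% of eligible genes. The share in the set was near that of eligible genes in females and below it in males, and the difference was not tested. The median log2 difference of the 17 was -0.81 in females and 0.10 in males, and that of all transcripts was 0.02 and 0.00.

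Of the 17 genes, CAH1 had the largest rise in oenocytes. It had 267 and 272 CPM (TMM-scaled counts relative to library size) in oenocytes of females, 615 and 616 in oenocytes of males, 62.2 and 64.1 in fat body of females and 59.7 and 65.3 in fat body of males. The oenocyte libraries of either sex did not overlap the fat body libraries, and fat body of the sexes did overlap. The log2 difference between tissues was 2.10 ± 0.0683 (SE) in females and 3.32 ± 0.0781 in males, with edgeR adjusted p 5.55e-05 and 5.49e-05. CAH1 was lower in female than in male oenocytes by a log2 difference of -1.21 ± 0.0773 (edgeR adjusted p 0.00785), a call that ended without the second female oenocyte library or either female fat body library, although the difference was then -1.22 to -1.21. In fat body the sexes had a log2 difference of 0.02 (edgeR adjusted p 0.971). These comparisons used TMM-scaled counts. In TPM, CAH1 had 53.0 and 51.6 in female and 78.5 and 78.6 in male fat body, which did not overlap. In oenocytes it had 276 and 270 TPM in females and 621 and 621 TPM in males. Why the 2 scales differ in fat body was not tested.

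GD25574 rose alongside CAH1 in the oenocytes. Its CPM were 111 and 116 in female and 157 and 158 in male oenocytes against 33.6 and 40.7 in female and 55.7 and 68.5 in male fat body. The log2 differences were 1.62 ± 0.148 and 1.36 ± 0.169 (edgeR adjusted p 0.00146 and 0.00514), of which the male one was 1.02 and no call on aligned reads. GD22123, which had no tested transcript, had 3514, 3155, 2648 and 2640 TPM in the oenocyte libraries and 1035, 1032, 1318 and 1289 TPM in the fat body libraries. On its aligned reads the log2 difference was 1.31 in females and 1.22 in males (edgeR adjusted p 0.00454 and 0.0142). On aligned reads, with all 21 genes tested, 10 differed between tissues in females and 5 in males, against 28.8% and 22.1% of all genes. The share over eligible genes is not given on aligned reads. On estimated counts it was 63.8% and 53.2%, far above that of all transcripts, so the set cannot be called enriched from these counts. Of the 2 oenocyte markers found, DesatF moved in the same direction as CAH1, GD25574 and GD22123, and Desat1 in the opposite one. Any link of these genes to the markers was not tested.

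GD10271 and GD25395 were the genes most lowered in oenocytes. GD10271 had 59.6 and 56.3 CPM in oenocytes of females, 37.3 and 38.4 in oenocytes of males, 455 and 460 in fat body of females and 511 and 505 in fat body of males. Its log2 difference was -2.97 ± 0.0617 in females and -3.72 ± 0.0859 in males (edgeR adjusted p 3.18e-05 and 5.49e-05). GD25395 had 20.6 and 34.6 CPM in oenocytes of females, 29.6 and 29.4 in oenocytes of males, 106 and 175 in fat body of females and 182 and 350 in fat body of males. Its log2 difference was -2.34 ± 0.476 and -3.15 ± 0.654 (edgeR adjusted p 0.0232 and 0.0290); oenocyte and fat body libraries did not overlap, but the 2 fat body libraries of either sex were far apart. The female call of GD25395 ended on aligned reads (log2 difference -1.83), without the first or second female oenocyte library (-2.07 and -2.76) and without the second female fat body library (-1.93), and the male call without the second male fat body library (-2.61).

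All 5 genes called in males were also called in females, with the same direction. Of the 8 genes over 1000 TPM that were tested, 7 were called lower in female oenocytes, with log2 differences of -0.79 or lower. Of these, 2 were also called lower in male oenocytes. Of the 106 eligible genes of that level tested, 72.6% were called lower in females and 30.2% in males. In TPM, all 7 were lower in male oenocytes than in male fat body, without overlap. There GD15019 had 1584 and 1575 against 2817 and 2748 TPM, and GD13692 had 2201 and 2188 against 3043 and 2776. Differences in TPM were not tested, and the share of all genes without overlap is not given in TPM. In CPM, 81.7% of 5976 transcripts matched to a gene did not overlap between the tissues of males, as did 12 of the 17 genes. Lack of overlap between 2 and 2 libraries was therefore common. On aligned reads 5 of the 9 fell in female oenocytes and 1, GD22123, rose, against 37.5% and 19.5% of the 128 eligible genes of that level. Fat body of females had far more Yp2 than their oenocytes, as given above, and muscle markers summed to 23.4 to 29.7 TPM in female fat body and 8.96 to 10.2 TPM in female oenocytes over the 3 of 11 found; their part in these differences was not tested. In bulk tissue, fewer cells of a type and less RNA per cell cannot be told apart. CoVIII had 49.5 and 58.1 CPM in oenocytes of females, 60.3 and 60.2 in oenocytes of males, 60.4 and 74.8 in fat body of females and 93.3 and 133 in fat body of males. None of its 4 comparisons passed the test, although the one between tissues in males did so in 5 of 16 alternatives, DESeq2 among them, as a fall in oenocytes. The CoVIII sex difference in fat body (log2 difference -0.74) passed in 2 of 16, DESeq2 and the replicate block, as a lower level in females.

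Most calls between the sexes were in fat body. There 6 of the 17 genes (35.3%) were higher in females and 0 were lower, by the same edgeR test. Over all transcripts 6.13% differed, with 2.84% higher and 3.28% lower in females, and over eligible genes 21.7% differed, with 8.93% higher. All 6 were among the 8 tested genes over 1000 TPM, where 44.3% of the 106 eligible genes of that level were also higher in females, and all 6 had also fallen in oenocytes against fat body of females, a comparison that shares the female fat body libraries. GD11208 had 1264 and 1461 CPM in female and 605 and 754 in male fat body, beside 688 and 694 in female and 703 and 722 in male oenocytes. GD23662 had 2019 and 2089 CPM in female and 1042 and 1099 in male fat body, beside 1142 and 1186 in female and 1145 and 1129 in male oenocytes. In CPM, for both genes female fat body stood alone above the other 3 groups, whose values lay close together. Their log2 differences between the sexes were 1.01 ± 0.132 and 0.94 ± 0.0589 (edgeR adjusted p 0.0213 and 0.00361), and the other 4 had 0.68 to 0.89. In TPM, all 6 were likewise higher in the fat body of females, without overlap, but the sexes lay nearer together. There GD23662 had 2649 and 2537 TPM in females against 2061 and 1994 in males, with 1724 to 1806 TPM in oenocytes. GD15019 had 2974 and 2868 against 2817 and 2748 TPM. The size of these sex differences thus depended on the scale, and why was not tested. Lack of overlap was common, with 61.4% of 5976 transcripts matched to a gene not overlapping between the sexes in fat body in CPM. The share in TPM is not given, and the 6 genes were called higher in females in the same libraries.

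Leaving out either female fat body library gave 2 calls, and leaving out the first male fat body library gave 3. The GD11208 call ended in each of these cases, with log2 differences of 1.11, 0.90 and 0.86, and without either female oenocyte library, with 1.0 and 1.01. On aligned reads per gene, with all 21 genes tested, 0 were called between the sexes in fat body, against 1.09% of all genes, and 7 had an unadjusted p under 0.05, as did 14.8% of all genes. GD23662 then had a log2 difference of 1.10 and GD11208 of 1.0.

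In oenocytes 2 of the 17 genes (11.8%) differed between the sexes, against 2% of all transcripts (1.63% higher and 0.371% lower in females) and 3.90% of eligible genes. They were CAH1, lower in females, and GD10271, higher by 0.60 ± 0.0724 (edgeR adjusted p 0.0353). The GD10271 call ended when any one of the 6 libraries other than those of male oenocytes was left out, with log2 differences of 0.53 to 0.64. On aligned reads 0 of 21 were called, against 0.337% of all genes, and 2 had an unadjusted p under 0.05, as did 7.23% of all genes.

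The sex difference itself depended on tissue in 5 of the 17 genes by edgeR's test of the interaction, against 2.59% of all transcripts (1.79% above 0 and 0.798% below) and 9.08% of eligible genes. The difference in oenocytes was above that in fat body in 1 gene and below it in 4. CAH1 had an interaction of -1.22 ± 0.102, GD25466 of -0.95 ± 0.139 and GD10271 of 0.75 ± 0.0920 (edgeR adjusted p 0.0241, 0.0485 and 0.0360). On aligned reads 0 of 21 were called, against 0.0809% of all genes, and 5 had an unadjusted p under 0.05, as did 8.37% of all genes. Leaving out any one of the 6 libraries of female oenocytes, female fat body and male fat body gave 0 interaction calls, while the CAH1 interaction was then between -1.29 and -1.16. In all, 10 of the 17 genes were called in at least 1 of the 4 comparisons of groups, and 7, with CoVIII among them, in none. Of the 1332 eligible genes tested, 932 were called in at least 1.

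**Figure D5:**
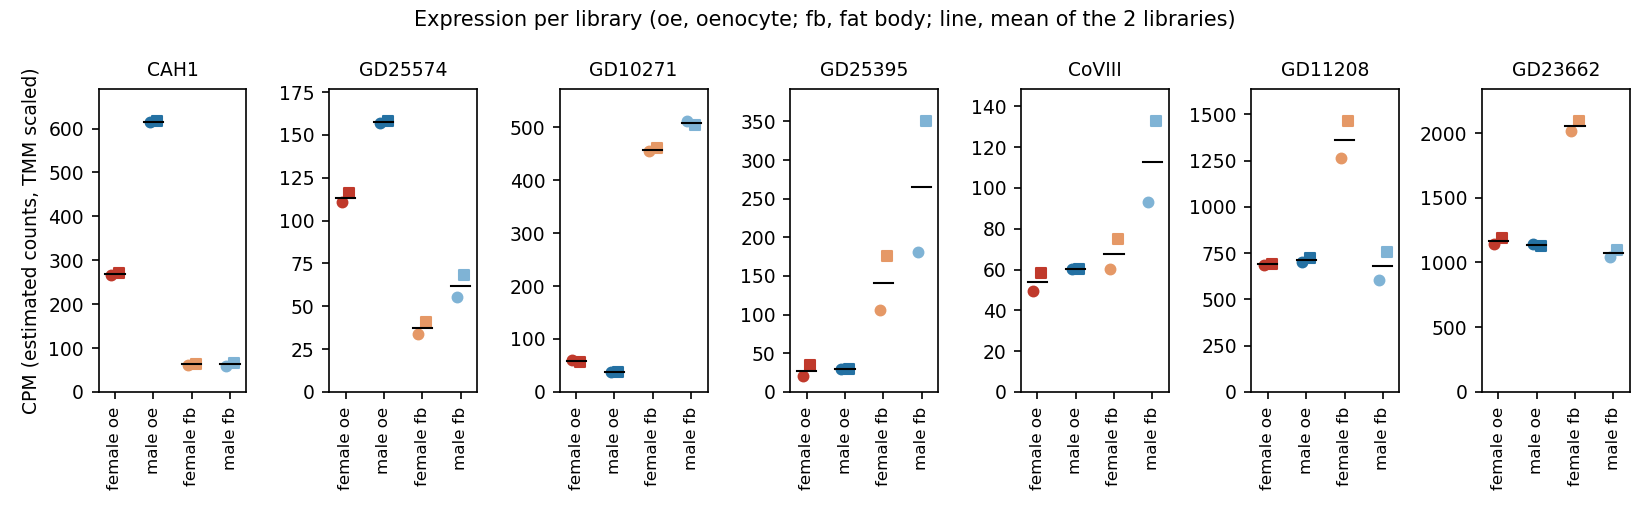
CPM of 7 of the genes in each library (y axis from 0, estimated counts with TMM scaling), with circles for the first and squares for the second library of a group and a line at their mean; the male oenocyte libraries are drawn apart but were tested as 1 sample. CAH1 and GD25574 are higher in oenocytes, GD10271 and GD25395 in fat body, and GD11208 and GD23662 stand out in female fat body.

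The allelic ratio between groups comes from the same reads that chose the genes. A model of alternative against reference reads was fitted to all genes with edgeR, and its counts for the set are given as a description from which nothing is read, since the rule holds every group at 90% or more and other genes are under no such limit. Between tissues 1 of the 21 genes was past the threshold in females and 0 in males, where all genes gave 0.293% and 0.158%. Between the sexes the counts were 0 in oenocytes and 1 in fat body, where all genes gave 0.0986% and 0.217%. At an unadjusted p under 0.05 were 3, 2, 3 and 2 of the 21 genes and 4.83%, 5.34%, 3.67% and 3.80% of all genes.

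The gene past the threshold was GD23662 both times. Its alternative reads were 308 of 328 and 166 of 172 in oenocytes of females, 784 of 785 and 205 of 226 in oenocytes of males, 1623 of 1623 and 1820 of 1820 in fat body of females and 157 of 167 and 901 of 901 in fat body of males. Reference reads were thus 26 of 500 in female oenocytes, 20 of them in the first library and 6 in the second, and 0 of 3443 in female fat body, which allows up to 0.0871%. In male fat body all 10 reference reads lay in the first library and the second had none, so the sexes overlapped. In the transcript tables the D. sechellia copy of GD23662 took 99.0% to 99.6% in each of the 8 libraries, and the 2 groups of either comparison did not stand apart there (log2 ratios of 0.00 and 0.02). The fitted log2 ratios of the allele reads, -9.63 between tissues in females and 7.51 between the sexes in fat body, depend on the count added to 0. Without the first female oenocyte library the former was -9.07, and without the first male fat body library the latter was 1.17. Neither was past the threshold in those cases, with DESeq2, or with all 8 libraries apart.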

How the data were processed

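The 8 libraries came with transcript tables, allele tables and series tables. Per the file headers, the deposited transcript tables hold estimated counts for a D. simulans and a D. sechellia copy of 24115 transcripts. The deposited allele tables hold whole-number read counts per gene in 4 classes (reference, alternative, no allele, conflicting). Their deposited log2 values were recomputed by the authors' formula with 5 added to each count and differed only by rounding error. The deposited series tables hold TPM. The submitters' processing notes name kallisto 0.44.0 and STAR 2.5.1b without a role; genome build, variant filter and strand are not given in the sources used here, so reads of overlapping genes cannot be told apart.

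The genes and lists were chosen with earlier results of these data known. Shares within groups are descriptions, with exact 95% binomial intervals or, for 0 reads, a limit of 3 reads, both for counting error only. Genes were matched to transcripts where all 8 TPM values were equal. Expression was tested with edgeR 4.0.16 (R 4.3.3) on estimated counts rounded to whole numbers, with both copies summed, TMM, filterByExpr, glmQLFit and glmQLFTest, 1 term per group and all groups in 1 fit. Allelic ratios were fitted in the same way, as a description only, on reference and alternative counts, with terms for sample and group by allele. The male oenocyte libraries were summed, which left 7 samples, and the lone sample was assumed to vary like the others. P-values were adjusted by Benjamini-Hochberg over all features tested. SE were back-calculated from edgeR's F statistic. The procedure was also run on simulated counts with 1 fixed spread for all features and samples. The real groups had unequal spreads, so nothing is read from that run. Named were genes with a symbol, the 5 with most allele reads, the 5 highest and 5 lowest shares, the 2 genes on either side of the 90% line, called genes in the allelic comparisons and, in each expression comparison, the 2 called genes with the largest non-overlapping rise and fall. Other genes, among them GD23068 and GD12013, were named after their values were seen. No sequence is shown, since none was given with these files.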

Additional observations from a re-analysis of the deposited data

Results flagged for a closer look

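The sex difference in expression was unequal between the tissues in 5 of the 17 genes by edgeR's test of that difference, of which 3 are named here by the rule for named genes. The share was 2.59% over all transcripts and 9.08% over eligible genes. On aligned reads 0 of 21 genes were called. How far the calls depended on single libraries is given above. The log2 difference between females and males in oenocytes less that in fat body was -1.22 in CAH1, 0.75 in GD10271 and -0.95 in GD25466. In CAH1 the sexes differed in oenocytes (267 and 272 CPM in females, 615 and 616 in males) and overlapped in fat body in CPM, though not in TPM. In GD10271 females were above males in oenocytes, while in fat body females had 455 and 460 CPM and males 511 and 505, which did not pass the test. In TPM the sexes lay further apart in GD10271, with 404 and 381 in female and 698 and 634 in male fat body. In GD25466 female fat body was above the other 3 groups, with 1692 and 1804 CPM against 874 to 1036. In TPM it was nearer to them, with 3954 and 3844 against 2682 to 3121.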

How the results depend on the processing

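The number of genes in the set was 41 at a line of 85%, 11 at 95% and 13 with 90% in each library, 25 and 15 with at least 20 or 60 reads per group, and 15 to 21 with a library left out. The expression calls among them (10 and 5 between tissues in females and males, 2 and 6 between the sexes in oenocytes and fat body, 5 for the interaction) became 9 to 10, 4 to 6, 0 to 2, 2 to 6 and 0 to 5 with a library left out. Aligned reads per gene gave 0 calls in both sex comparisons and the interaction. DESeq2 gave 8 in the male tissue comparison, 4 between the sexes in oenocytes and 8 for the interaction. Fitting only the groups compared gave 8 in the male tissue comparison and 4 between the sexes in oenocytes, and all 8 libraries apart gave 8 for the interaction. Leaving out the 10 most abundant transcripts before scaling, chosen after seeing the data, gave 10, 5, 2, 6 and 6. The cause of these shifts was not tested.

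For the allelic ratio, given as a description only, the count of 1 between tissues in females and of 1 between the sexes in fat body became 0 with all 8 libraries apart, with DESeq2 and with the species copies; with a library left out the 4 comparisons gave 0 to 1, 0 to 0, 0 to 1 and 0 to 1. The log2 sex difference of CAH1 in fat body (0.02, no call) changed sign to -0.01 without the second female and -0.04 without the first male fat body library, and ran from -0.0406 to 0.0823 with a library left out.

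The replicate numbers were not used to pair the libraries in the main fit. The deviations of same-numbered libraries correlated at -0.00793 to 0.0935. That cannot show whether such libraries shared flies or a dissection. With the replicate number as a block the counts were 11, 7, 2, 8 and 8 for expression and 1, 0, 0 and 1 for the allelic ratio. Genes with few allele-specific reads, such as GD20462 with 277, limit how closely a share can be placed against the 90% line, and expression of GD18958, GD22123, GD23670 and GD29026 was tested on aligned reads only.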

Other observations

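Other subunits of cytochrome c oxidase, chosen after the names in the set were seen, did not share one allele pattern. CoVIII had 99.5% alternative reads over the 8 libraries. CoVIIc (2R) had 97.2% of 1239 reads but 84.5% of 71 reads in male oenocytes, which kept it out of the set. CoIV had 49.9%, CoVa 64.5% and the X-linked CoVIb 33.0%. In females CoVIb had 46.4% in oenocytes and 47.8% in fat body. The other carbonic anhydrase with a symbol, beta-CA, had 48.4% of 287 reads where CAH1 had 98.4%.

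GD17450 was the single gene on the male X with 90% or more alternative reads in both male groups, at 98.5% of 747 reads in oenocytes and 95.9% of 828 in fat body. The median X gene had 13.6% in male oenocytes and 18.9% in male fat body. Males hold 1 X, so the reads of GD17450 are not taken as those of a D. sechellia X allele, and their origin was not tested. In females it had 99.6% of 1825 reads in oenocytes and 95.7% of 628 in fat body.

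Of the 26 autosomal genes whose D. sechellia copy took 90% or more of at least 1000 estimated counts, 11 had an alternative share under 90% in the allele tables.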
